A study of Mus musculus with 18 samples.

Results

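The keratinocyte and skin epithelium genes are a module of 37 named mouse genes that build, join or regulate the stratified epithelium of the skin. They were taken by symbol from a list set up with earlier results of these data known, though no value entered the choice of rows, and 36 of the 37 were found among the 20325 genes of the deposited tables; Flg (filaggrin) was not analysed here. They were followed in C3H10T1/2 cells, mouse embryonic mesenchymal cells of the C3H strain that can form several connective tissues, and in tumors grown from one of its derivatives. All histone lines stably expressed a FLAG- and HA-tagged histone H3 on top of the endogenous genes. They carried wild-type H3.3 (n = 2 libraries), H3.3 with lysine 36 replaced by methionine (H3.3K36M, n = 2) or H3.1 with the same substitution (H3.1K36M, n = 2). The siRNA groups were parental cells given a scramble siRNA (control siRNA, n = 3) or siRNAs against the H3K36 methyltransferases Nsd1, Nsd2 and Setd2 (HMT siRNA, n = 3), and carried no histone transgene in the labels. Cultured cells were at passage 10 to 15. Tumors (n = 6) grew for 5 to 6 weeks after 2000000 H3.3K36M cells in Matrigel were injected under the skin of both flanks of athymic female SCID mice aged 6 to 8 weeks, so host skin cells were near the graft. Each histone genotype is a single line, and nothing in the labels tells whether replicate libraries came from different cultures, or tumors from different mice. Each p-value rests on the spread between replicates. For the cultured cells this spread may thus be technical, and for the tumors it may include tumors of the same mouse.

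Stratified epithelium is held together by keratin filaments that run from cell to cell through desmosomes and down to the basement membrane through hemidesmosomes. Basal keratinocytes make the Krt5 and Krt14 pair, and cells that leave the basal layer switch to the Krt1 and Krt10 pair. Krt6a, Krt16 and Krt17 are made in wounded or stressed epidermis and in skin appendages. The outer cells assemble a cornified envelope from loricrin and involucrin. The transcription factor p63 (Trp63) is the master regulator of this lineage and drives many of the junction genes, while mesenchymal cells lack most of the programme and express Snai, Zeb and Twist factors that repress Cdh1, the gene of E-cadherin.

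Expression was measured by RNA sequencing. Each library held between 13993307 and 56041839 estimated reads, and 1 read was worth 0.438 to 1.73 units of the deposited scale, a normalised estimated count that is used as the level throughout. The levels of different genes are not set against each other, because no gene length was applied. The 8 mesenchymal markers were detected in each library of cells and tumors, with summed levels of 947436 to 1008471 in H3.3K36M cells and 365455 to 427667 in tumors. The siRNA targets were lower in all 3 HMT siRNA libraries than in all 3 control libraries: Setd2 was at 1063 to 1224 against 3114 to 3401, Nsd1 at 3189 to 3422 against 4392 to 5007, and Whsc1 (Nsd2) at 1019 to 1121 against 1565 to 1607. Differences were tested with limma on log2(level + 1), across all genes with a level of at least 10 in enough libraries. A gene is said to rise or fall where the p-value adjusted by Benjamini-Hochberg over all tested genes was under 0.05, and fold changes are given ± their standard error (SE). This scale understates the change of genes with low levels.

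RefSeq promoter windows, from 250 bases before to 50 after the annotated start on build GRCm38.p6, were found for 17 of the 36 genes. Those of 4 genes are shown because the genes behave differently in the tumors described below. Krt5 (basal keratin), Lor (loricrin) and Krtdap (a secreted keratinocyte differentiation protein) had their lowest levels in tumors 4 and 6. Epcam (an epithelial adhesion protein) had its lowest levels in tumors 4 and 2. Capitals mark the TATA box motif TATAAA and the E-box motif CACCTG, of the kind that Snai and Zeb factors bind. Either strand was searched, so CAGGTG is the same E-box read on the other strand, and the 2 motifs share no overlap. The windows lie at chr15:101712856-101713155 for Krt5 (minus strand), chr3:92083093-92083392 for Lor (minus strand), chr7:30787655-30787954 for Krtdap (plus strand) and chr17:87635729-87636028 for Epcam (plus strand).
Krt5: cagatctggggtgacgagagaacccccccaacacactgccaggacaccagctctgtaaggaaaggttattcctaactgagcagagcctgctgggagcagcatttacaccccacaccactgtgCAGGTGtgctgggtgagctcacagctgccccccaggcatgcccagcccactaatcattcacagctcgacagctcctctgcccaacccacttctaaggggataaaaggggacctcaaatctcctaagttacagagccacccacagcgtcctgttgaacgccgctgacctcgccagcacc
Lor: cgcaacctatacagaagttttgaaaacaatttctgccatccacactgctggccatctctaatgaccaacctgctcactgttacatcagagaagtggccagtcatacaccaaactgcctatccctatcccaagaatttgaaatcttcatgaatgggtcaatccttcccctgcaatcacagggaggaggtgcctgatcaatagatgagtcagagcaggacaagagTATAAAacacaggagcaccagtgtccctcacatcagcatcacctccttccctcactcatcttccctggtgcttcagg
Krtdap: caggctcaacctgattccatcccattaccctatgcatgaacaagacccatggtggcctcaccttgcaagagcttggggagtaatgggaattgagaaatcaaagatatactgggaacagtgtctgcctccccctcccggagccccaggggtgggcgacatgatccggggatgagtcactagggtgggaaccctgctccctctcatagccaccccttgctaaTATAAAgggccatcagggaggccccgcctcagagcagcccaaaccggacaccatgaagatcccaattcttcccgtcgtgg
Epcam: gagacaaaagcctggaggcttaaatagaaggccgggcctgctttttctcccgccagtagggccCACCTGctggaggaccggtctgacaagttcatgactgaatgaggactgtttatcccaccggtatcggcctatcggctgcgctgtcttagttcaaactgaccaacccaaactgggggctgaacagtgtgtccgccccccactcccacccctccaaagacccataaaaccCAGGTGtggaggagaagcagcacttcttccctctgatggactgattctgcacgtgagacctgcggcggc

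TATAAA was present in 5 of the 17 windows (Col17a1, Ivl, Krt10, Krtdap and Lor) and in 13.6% of 32851 RefSeq promoters of the same length. It began 27 bases before the start in Lor and 30 bases before it in Krtdap. CACCTG was present in 7 of the 17 windows (Cldn4, Dsp, Epcam, Grhl3, Krt10, Krt5 and Sfn) and in 20.2% of all promoters. Its first letter lay 187 and 19 bases before the start in Epcam and 128 bases before it in Krt5. The windows held a median of 5 CG dinucleotides, against 7 over all promoters. These matches describe the letters of the windows only, and the build differs from that of the expression files.

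Cultured cells held only part of the module. Krt1, Krt17, Epcam and Cldn4 were listed at 0 in all cultured libraries, and Krt5, Krt6a, Dsg1a, Dsg3, Dsc3, Lor, Krtdap, Dmkn, Calml3 and Grhl3 did not exceed 9.33 in any cultured histone line. Krt5, which was at 5.34 and 1.44 in the wild-type libraries, was at 1.73 and 0 in H3.3K36M cells and 1.40 and 3.83 in H3.1K36M cells. In contrast, Perp, Itgb4, Jup, Pkp1, Cdh1, Sbsn, Trp63, Krt14, Krt15 and Krt10 were each above 100 in both wild-type libraries. The heat map of all 36 genes shows this division between cells and tumors.

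**Figure D1:**
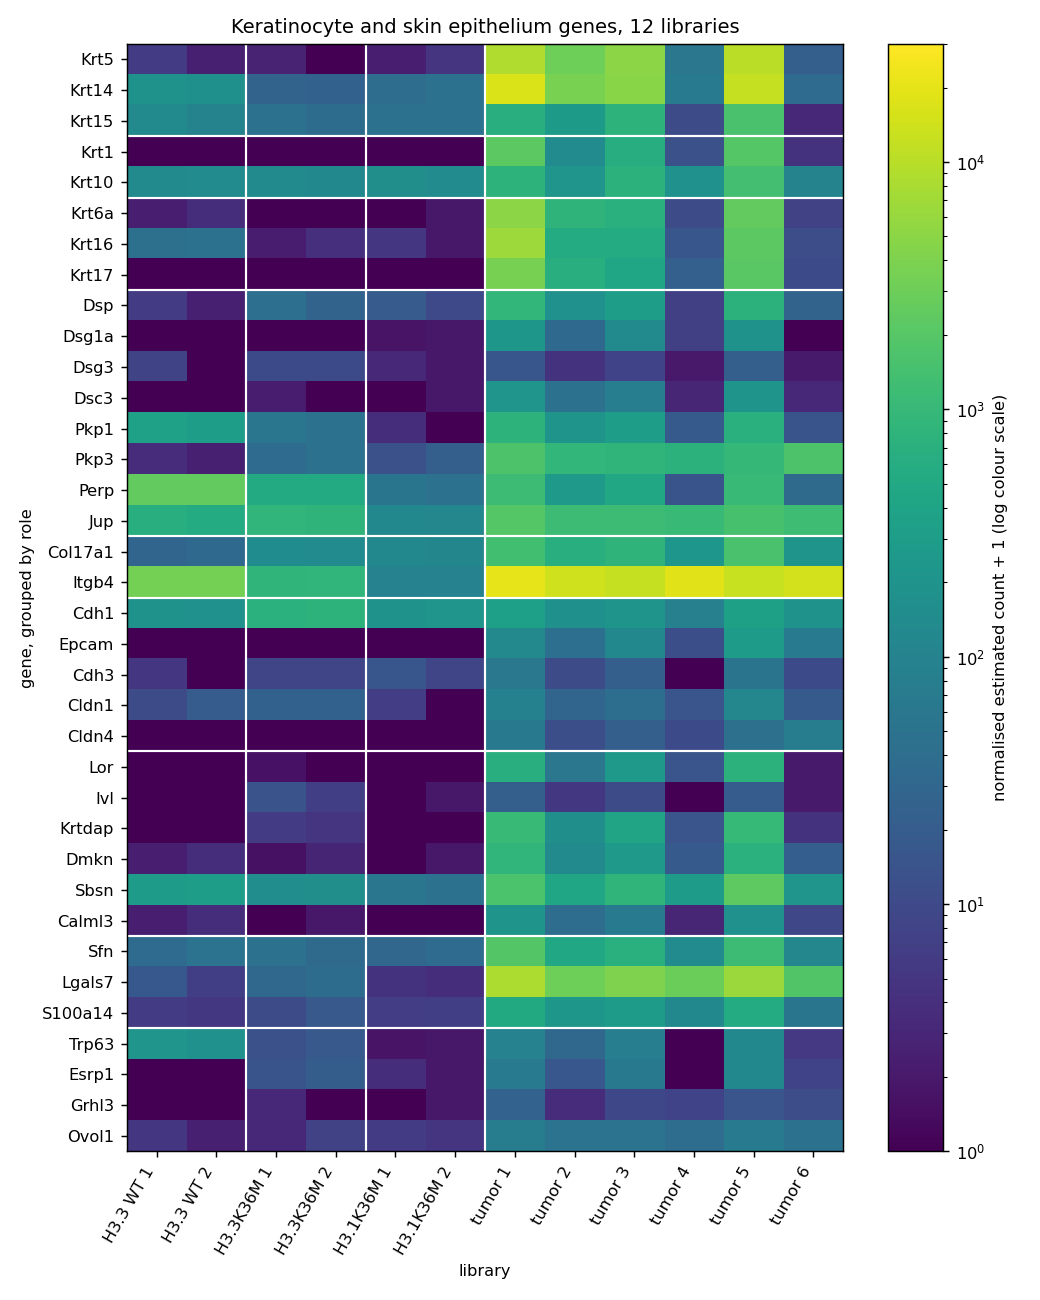
Levels of the 36 genes (vertical axis, grouped by role) in the 6 libraries of the histone lines and the 6 tumors (horizontal axis); colour is the normalised estimated count plus 1 on a log scale, and white lines separate roles and groups. Krt1, Krt17, Epcam and Cldn4 were listed at 0 in all 6 cell libraries, while Itgb4 was at 11933 or more in every tumor.

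H3.3K36M and wild-type H3.3 cells were compared to find how the mutant histone changes these genes. The epithelial regulator Trp63, the basal keratins Krt14 and Krt15 and the wound and appendage keratin Krt16 fell. So did the junction genes Pkp1, Perp and Itgb4 and the secreted Sbsn. E-cadherin, Pkp3, Dsp, Jup, Col17a1, Lgals7 and the epithelial splicing factor Esrp1 rose. Thus 7 of the 18 genes tested rose and 8 fell, where 38.5% of all 13248 genes tested rose and 38.0% fell, so the share called was near that of the whole transcriptome. Their median log2 fold change was -0.08, or -0.10 without Esrp1, which is listed at 0 in wild-type cells, against -0.01 over all genes. Krt16 met the filter only through wild-type cells, and Dsp, Pkp3, Lgals7, Cldn1 and Esrp1 only through H3.3K36M cells. In bulk RNA, fewer cells expressing a gene and less of its RNA per cell cannot be told apart, here and below.

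Among the regulators, Trp63 was at 211 and 183 in the wild-type libraries and at 12.1 and 17.1 in the H3.3K36M libraries (log2 fold change -3.68 ± 0.32, limma, adjusted p = 4.97e-08). Both mutant libraries lay far below both wild-type libraries. Esrp1, which directs epithelial splice forms, was listed at 0 in both wild-type libraries and was at 13.3 and 19.9 in H3.3K36M cells (limma, adjusted p = 2.42e-05). The regulators Grhl3 and Ovol1, with highest levels of 2.31 and 6.64 in cultured histone lines, were too low to be tested.

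Among the keratins, the basal Krt14 was at 197 and 175 in wild-type and 25.3 and 23.5 in H3.3K36M libraries (log2 fold change -2.88 ± 0.19, limma, adjusted p = 1.62e-09). Krt16 was at 43.4 and 44.9 against 1.31 and 3.08 (log2 fold change -3.88 ± 0.53, limma, adjusted p = 7.55e-06). The mutant libraries were the lower ones for both genes, without overlap. Krt15, a keratin of basal and follicle stem cells, fell with a log2 fold change of -1.48, whereas the suprabasal Krt10 had -0.10 (adjusted p = 0.504) and overlapping groups. Krt14, Krt16 and Krt17 are similar in sequence and Krt6a has a close copy, Krt6b, so reads could be split between them.

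The desmosome changed in both directions. Perp, a membrane protein of desmosomes that p63 is known to activate, was at 2546 and 2494 in wild-type and 541 and 538 in H3.3K36M cells (log2 fold change -2.22 ± 0.08, limma, adjusted p = 7.73e-13). Plakophilin 1 (Pkp1), which links desmosomal cadherins to keratin, was at 358 and 313 against 56.1 and 45.6 (log2 fold change -2.70 ± 0.56, limma, adjusted p = 0.00328). Its relative plakophilin 3 (Pkp3) went the other way, from 2.67 and 1.44 to 36.4 and 46.5 (log2 fold change 3.81 ± 0.40, limma, adjusted p = 4.41e-07). Desmoplakin (Dsp), the linker to keratin filaments, was at 5.34 and 1.44 against 42.2 and 25.6 (log2 fold change 3.11 ± 0.49, limma, adjusted p = 3.69e-05). Of the 8 desmosome genes, 5 were tested; plakoglobin (Jup) was the fifth and rose with a log2 fold change of 0.50, and the cadherins Dsg1a, Dsg3 and Dsc3 were too low.

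Cdh1 was at 195 and 185 in wild-type and 733 and 795 in H3.3K36M libraries (log2 fold change 2.003 ± 0.09, limma, adjusted p = 1.24e-11), and the groups did not overlap. The hemidesmosome genes moved apart: Itgb4, the integrin beta4 chain, had a log2 fold change of -2.03, and Col17a1, the transmembrane collagen that binds it, of 2.22. Sbsn (suprabasin) had a log2 fold change of -0.93 and Lgals7 (galectin 7) of 1.68. The tight junction gene Cldn1 (0.79, adjusted p = 0.361) and Sfn, the 14-3-3 sigma protein (-0.06, with overlapping groups), did not pass the test. The other genes not tested, beside those already named as low, were Cdh3, Ivl and S100a14, with highest levels in cultured histone lines of 14.7, 12.7 and 17.1.

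H3.1K36M cells were compared with the same wild-type libraries, so the control samples are shared with the H3.3K36M comparison. There was no line with wild-type H3.1, so the change of histone variant and the substitution cannot be told apart here. The junction genes Perp, Itgb4, Pkp1 and Jup and the regulator Trp63 fell far, and the Cdh1 levels overlapped those of wild-type cells. Of 14 genes tested, 9 fell and 2 rose, where 39.4% of all 12955 genes tested fell and 41.3% rose. The median log2 fold change of the 14 was -2.23, against 0.01 over all genes. Of the 14, 13 were at 10 or more in both wild-type libraries. Trp63, Pkp1 and Krt16 met the filter only through wild-type cells, and Pkp3 only through H3.1K36M cells. The counts and the median of the 14 thus cannot be read against those of all genes.

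Trp63 was at 0.698 and 0.958 in H3.1K36M cells (log2 fold change -6.76 ± 0.32, limma, adjusted p = 1.17e-11). Pkp1 was at 2.79 and 0 (log2 fold change -7.43 ± 0.58, limma, adjusted p = 1.69e-05). Perp was at 54.4 and 48.2 (log2 fold change -5.59 ± 0.08, limma, adjusted p = 2.33e-18). All 6 of these H3.1K36M values lay below every wild-type and every H3.3K36M value of the same gene. Itgb4 was at 94.8 and 95.8 in H3.1K36M libraries and 3489 and 3515 in wild-type libraries (log2 fold change -5.18 ± 0.06, limma, adjusted p = 2.39e-19). Jup was at 120.0 and 115 against 628 and 567 (log2 fold change -2.33 ± 0.08, limma, adjusted p = 2.05e-13), and was thus below wild-type where H3.3K36M cells were above it at 878 and 807. Cdh1 was at 192 and 211 and overlapped the wild-type libraries (log2 fold change 0.08, adjusted p = 0.381), but passed the test after quantile normalisation (0.29, limma, adjusted p = 0.00596).

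Sbsn was at 57.2 and 46.0 in H3.1K36M and 286 and 321 in wild-type libraries (log2 fold change -2.54 ± 0.14, limma, adjusted p = 5.39e-11). Krt16 was at 4.17 and 0.978 (log2 fold change -3.82 ± 0.53, limma, adjusted p = 5.91e-06), Krt14 at 38.4 and 45.0 (log2 fold change -2.13 ± 0.19, limma, adjusted p = 3.07e-08), and Krt15 had a log2 fold change of -1.29. The genes that rose were Pkp3, at 11.9 and 22.05 (log2 fold change 2.52 ± 0.40, limma, adjusted p = 2.69e-05), and Col17a1, with a log2 fold change of 1.89. Krt10 and Sfn, at 0.14 and -0.36, did not pass the test. Dsp, Cldn1, Lgals7 and Esrp1 were not tested here, and Esrp1 was at 2.79 and 0.958 in H3.1K36M cells.

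The mutant lines were also compared with each other, in the fit that holds all 3 histone lines. Of 17 genes tested, 12 were lower in H3.1K36M cells and 1 was higher, where 32.9% of all 13112 genes tested were lower and 36.1% higher. All 17 were at 10 or more in both H3.3K36M libraries. Dsp, Pkp1, Cldn1, Lgals7, Trp63 and Esrp1 met the filter only through H3.3K36M cells, so the counts cannot be read against those shares. Pkp1 (-4.73 on the log2 scale), Perp (-3.37), Itgb4 (-3.15), Trp63 (-3.08) and Jup (-2.83) were among the lower genes. Cldn1 was at 5.58 and 0 in H3.1K36M and 23.7 and 23.7 in H3.3K36M cells (log2 fold change -3.27 ± 0.75, limma, adjusted p = 0.00291), and Lgals7 at 3.49 and 2.88 against 30.1 and 37.0 (log2 fold change -3.04 ± 0.45, limma, adjusted p = 2.54e-05). Esrp1 differed by -2.67, Cdh1 by -1.92, Sbsn by -1.61, Dsp by -1.32 and Pkp3 by -1.29. Krt14 was the exception, higher in H3.1K36M cells by 0.75 ± 0.19 (limma, adjusted p = 0.00242). Krt15, Krt10, Col17a1 and Sfn did not pass the test. The calls of Dsp, Pkp3 and Esrp1 were lost under at least 1 alternative setting, with adjusted p up to 0.255, 0.125 and 0.0506.

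**Figure D2:**
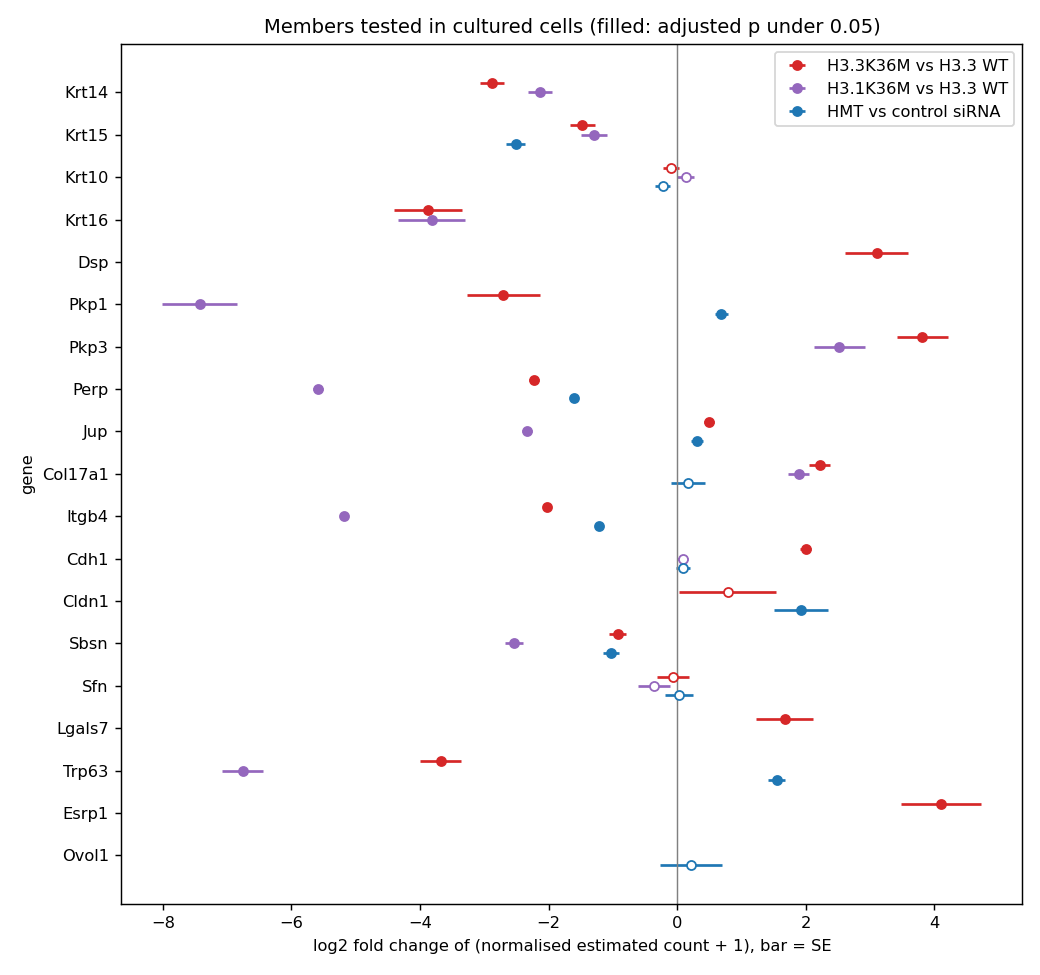
Log2 fold changes of level + 1 (horizontal axis, bar = SE) for the genes tested in cultured cells (vertical axis), for H3.3K36M and H3.1K36M cells against the same wild-type libraries and for HMT against control siRNA; filled points passed an adjusted p of 0.05. Trp63 lies at -3.68 and -6.76 for the mutant lines and at 1.55 for HMT siRNA, and Esrp1 has wild-type libraries listed at 0, so that its point depends on the 1 added before the log.

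HMT siRNA was compared with control siRNA in parental cells to see whether lowering the H3K36 methyltransferases changes the same genes. Perp, Itgb4, Krt15 and Sbsn fell and Trp63, Pkp1, Cldn1 and Jup rose. Of 13 genes tested, 4 rose and 4 fell, where 33.3% of all 12248 genes tested rose and 33.5% fell. The median log2 fold change was 0.09, against 0.00 over all genes. Cldn1 met the filter only through HMT siRNA cells.

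Trp63 was at 129, 109 and 106 in the control libraries and at 319, 353 and 339 in the HMT siRNA libraries (log2 fold change 1.55 ± 0.13, limma, adjusted p = 1.99e-09). All 3 knockdown libraries stood well above all 3 controls. Krt15 was at 231, 248 and 269.8 against 44.3, 49.2 and 36.1 (log2 fold change -2.51 ± 0.15, limma, adjusted p = 8.33e-12). Perp was at 1146, 1226 and 1148 against 359.7, 385 and 415 (log2 fold change -1.60 ± 0.06, limma, adjusted p = 1.34e-15). The knockdown libraries were the lower ones for both genes, without overlap. Itgb4 was at 464, 488 and 517 against 196, 212 and 224 (log2 fold change -1.21 ± 0.06, limma, adjusted p = 4.26e-13).

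Sbsn was at 74.4, 90.5 and 81.3 in control and 40.9, 36.6 and 41.3 in HMT siRNA libraries (log2 fold change -1.03 ± 0.13, limma, adjusted p = 4.38e-07). Pkp1 was at 199, 219.6 and 209 against 356, 328 and 329.5 (log2 fold change 0.69 ± 0.10, limma, adjusted p = 3.48e-06). Cldn1 was at 1.52, 6.27 and 8.65 against 23.2, 19.4 and 18.6 (log2 fold change 1.93 ± 0.42, limma, adjusted p = 0.000412). For these 3 genes the groups did not overlap. Jup was at 189.7, 149 and 150.5 against 222, 184 and 199 (log2 fold change 0.31 ± 0.10, limma, adjusted p = 0.0073), with 1 knockdown library below the highest control, and its call was lost without HMT siRNA replicate 1 (adjusted p = 0.056). Cdh1 was at 72.8, 70.3 and 71.0 in control and 69.7, 86.5 and 72.2 in HMT siRNA libraries (log2 fold change 0.09 ± 0.11, limma, adjusted p = 0.494), and Krt10, Col17a1, Sfn and Ovol1 did not pass the test either. Krt14 was listed at 0 in all 3 control libraries and reached 4.13 in 1 HMT siRNA library, Krt5 reached 1.52 in 1 control library, Esrp1 reached 1.25, and Epcam was listed at 0, so these genes were not tested.

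The response to H3.3K36M and the response to HMT siRNA were then set against each other in 1 fit of the 10 libraries of their shared table, each against its own control. Of 19 genes tested, 6 had a higher and 6 a lower response to H3.3K36M, where 27.5% and 27.4% of all 13186 genes tested did. Trp63 fell by 3.62 on the log2 scale in H3.3K36M cells and rose by 1.55 after HMT siRNA, a difference of -5.17 ± 0.21 (limma, adjusted p = 2.3e-13). Pkp1 likewise went down by log2 -2.66 in the mutant and up by 0.69 after knockdown, a difference of -3.35 ± 0.15 (limma, adjusted p = 1.65e-12). Cdh1 rose by 2.03 in the mutant and was at 0.09 after knockdown, a difference of 1.95 ± 0.17 (limma, adjusted p = 1.63e-08).

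Other genes fell in both settings. Perp had log2 fold changes of -2.19 in H3.3K36M cells and -1.60 after HMT siRNA, Itgb4 of -1.998 and -1.214, and Krt15 of -1.44 and -2.51. The difference between the responses passed the test for each of the 3, and for Krt15 it was lost after quantile normalisation (adjusted p = 0.192). Sbsn fell by similar amounts, -0.89 and -1.03, with a difference of 0.14 ± 0.20 (limma, adjusted p = 0.576). The starting levels of the controls differed: in this table Itgb4 was at 2593 and 2596 in wild-type H3.3 cells and Krt14 at 146 and 129, against 464 to 517 and 0 in control siRNA cells.

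**Figure D3:**
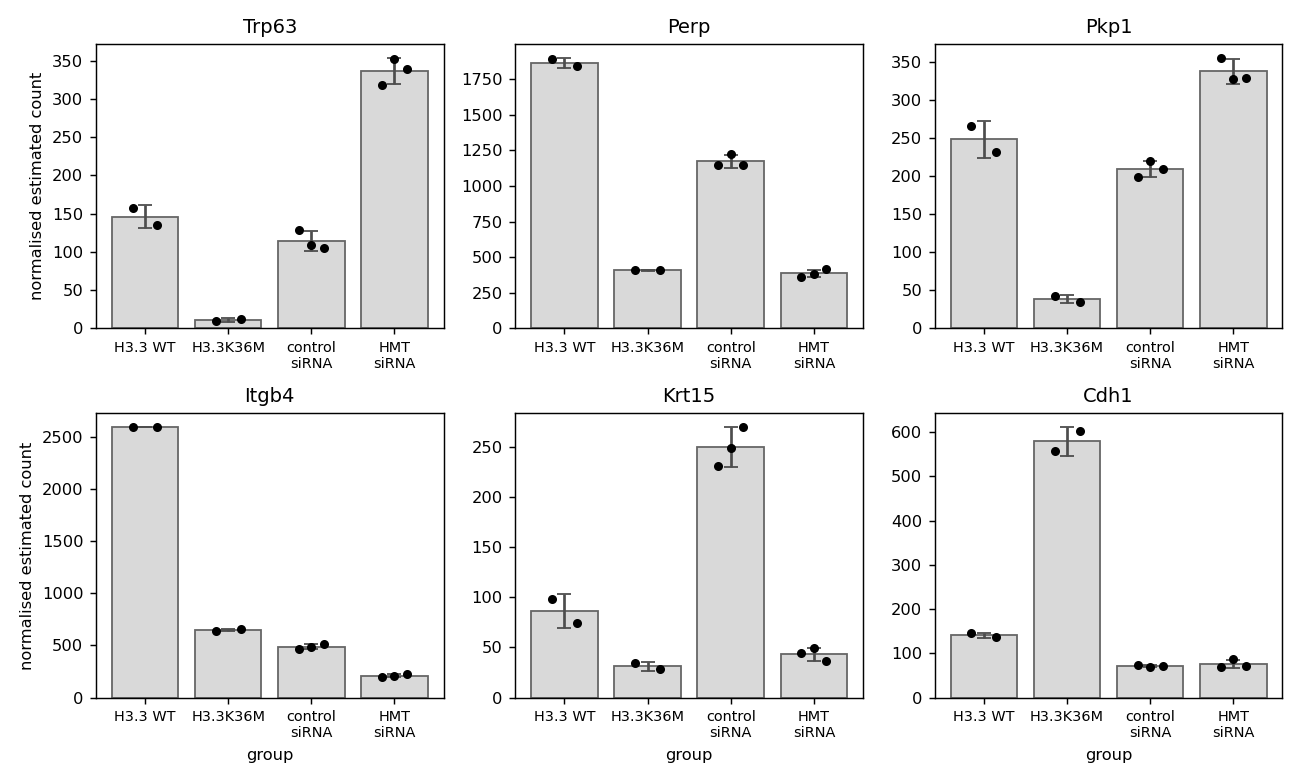
Levels of 6 genes (vertical axes, normalised estimated count of the table that holds the siRNA libraries) in wild-type H3.3, H3.3K36M, control siRNA and HMT siRNA cells (horizontal axes); bars are means, error bars are SD and points are libraries (n = 2, 2, 3 and 3). Trp63 is lower in H3.3K36M cells and higher after HMT siRNA, Perp is lower in both, and Cdh1 is higher in H3.3K36M cells.

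Tumors grown from H3.3K36M cells were compared with those cells in culture. Keratins of all 3 kinds, envelope and secreted proteins, Itgb4, Pkp3, galectin 7, Epcam, Cldn4 and Ovol1 rose, and Cdh1 fell. All 36 genes were tested, of which 23 rose and 1 fell, where 41.0% of all 14842 genes tested rose and 34.2% fell. The count of 23 cannot be read against that share, because only 17 of the 36 were at 10 or more in both cell libraries and the other 19 met the filter through the tumors. Of the 17, 8 rose and 1 fell, where 35.8% of all 12891 such genes rose and 39.4% fell, and their median log2 fold change was 1.76, against -0.08. Of the 19, 15 rose, near the 75.4% of all 1951 genes that met the filter in this way. The count of 23 fell to 12 without H3.3K36M cell replicate 1, to 10 without replicate 2 and to 14 with 10 in place of 1 added before the log. The 9 calls that held under each alternative setting that tested them were those of Krt5, Krt17, Pkp3, Itgb4, Epcam, Cldn4, S100a14 and Ovol1, which rose, and Cdh1. One of these settings, the replicate number as a block, set only tumors 1 and 2 against the cells. Krt1, Krt16, Dmkn, Lgals7 and Sbsn had their highest adjusted p in it (limma, 0.0829, 0.123, 0.0826, 0.0622 and 0.206).

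The basal keratin Krt5 was at 8880.4, 3090.0, 5092, 58.7, 10274 and 21.8 in tumors 1 to 6 and at 1.73 and 0 in the H3.3K36M cells (log2 fold change 9.40 ± 2.37, limma, adjusted p = 0.00538). Krt14 was at 16912, 3804, 4834, 67.4, 11985 and 36.4 in tumors, against 25.3 and 23.5 in cells (log2 fold change 5.84 ± 2.33, limma, adjusted p = 0.0446). Tumors 4 and 6 were far below the other 4 tumors, and for Krt14 they came close to the cells. Krt15 also had tumors on both sides of the cells, from 2.29 to 1539, and did not pass the test (adjusted p = 0.485). Krt14 lost its call under several settings, with adjusted p up to 0.155.

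The suprabasal Krt1 was at 2211, 143, 605, 12.1, 2001 and 3.44 in tumors 1 to 6 and listed at 0 in both cell libraries (limma, adjusted p = 0.0152). Krt6a was at 4999, 815, 692, 9.86, 2493 and 6.55, and was also listed at 0 in the cells (limma, adjusted p = 0.0126). Krt17 was at 3670.4, 673, 430.4, 22.3, 2158 and 9.16, against 0 in the cells (limma, adjusted p = 0.00613). The order of the tumors was similar for these keratins, with 4 and 6 lowest. Krt16 was at 6602, 575, 578, 14.6, 2224 and 10.6, against 1.31 and 3.08 in the cells (log2 fold change 6.66 ± 2.28, limma, adjusted p = 0.024). Krt10, which cultured cells already expressed, ranged from 98.6 to 1368 and did not pass the test (adjusted p = 0.146). The calls of Krt1, Krt6a and Krt16 were lost under at least 1 setting, with adjusted p up to 0.0829, 0.0673 and 0.123.

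Galectin 7 (Lgals7) was at 8538, 3072, 4035, 2934, 6403 and 1822 in tumors 1 to 6 and 30.1 and 37.0 in the cells (log2 fold change 6.83 ± 0.50, limma, adjusted p = 2.27e-06). Every tumor was far above both cell libraries, tumors 4 and 6 included. Dmkn, which encodes the secreted dermokine, was at 891, 137, 268, 17.2, 732 and 20.6, against 0.578 and 1.90 in the cells (log2 fold change 6.09 ± 1.495, limma, adjusted p = 0.00464). Among the other envelope and secreted proteins, Lor ranged from 1.15 to 747 with a median of 154, Calml3 from 2.02 to 211 and Sbsn from 212 to 2321, and all 3 rose. Krtdap ranged from 3.44 to 1052 and Ivl from 0 to 21.5, and neither passed the test (adjusted p = 0.0619 and 0.628). The 14-3-3 gene Sfn, from 117 to 1921, and S100a14, from 53.9 to 560.0, rose, and each tumor exceeded both cell libraries.

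The hemidesmosome genes rose in all 6 tumors. Itgb4 ranged from 11933 to 20589 with a median of 14446, against 845 and 866 in the cells (log2 fold change 4.15 ± 0.20, limma, adjusted p = 1.19e-07). Col17a1 ranged from 203 to 1582, against 150.3 and 141 (log2 fold change 2.05 ± 0.77, limma, adjusted p = 0.035). Among desmosome genes, Pkp3 ranged from 752 to 1696, against 36.4 and 46.5 in the cells (log2 fold change 4.68 ± 0.33, limma, adjusted p = 1.68e-06), and Jup from 1028 to 2010, against 878 and 807 (log2 fold change 0.64 ± 0.22, limma, adjusted p = 0.0264). Dsg1a (0 to 237) and Dsc3 (2.02 to 213) also rose. Dsp, Dsg3, Pkp1 and Perp had tumors above and below the cells and did not pass the test. The call of Jup was lost with adjusted p up to 0.143 and that of Col17a1 up to 0.138.

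Cdh1 was at 331, 178, 205, 87.0, 348 and 199.6 in tumors 1 to 6 and at 733 and 795 in the cells (log2 fold change -1.90 ± 0.45, limma, adjusted p = 0.00385), and each tumor was below both cell libraries. Epcam was at 125, 41.6, 122, 11.1, 293 and 67.7, and was listed at 0 in the cells (limma, adjusted p = 0.000358). The tight junction gene Cldn4 ranged from 9.11 to 79.1, likewise against 0 (limma, adjusted p = 0.000505). Tumor 6, which was lowest for Krt5, was the highest for Cldn4. Cdh3 and Cldn1 did not pass the test.

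Of the regulators, Trp63 was at 95.9, 29.8, 80.2, 0, 119.8 and 4.59 in tumors 1 to 6 and at 12.1 and 17.1 in the cells (log2 fold change 0.60 ± 1.69, limma, adjusted p = 0.755). Esrp1 was at 71.0, 15.4, 63.9, 0, 121 and 6.88, against 13.3 and 19.9 (0.24 ± 1.59, limma, adjusted p = 0.894). Both were listed at 0 in tumor 4 and were low in tumor 6. Under quantile normalisation both fold changes took the opposite sign, still without passing the test. Ovol1, an epidermal transcription factor, ranged from 38.5 to 76.8, against 2.31 and 6.64 (log2 fold change 3.45 ± 0.39, limma, adjusted p = 4.35e-05), and Grhl3, a regulator of the epidermal barrier, ranged from 2.71 to 24.8 and rose (log2 fold change 2.51 ± 0.75, limma, adjusted p = 0.0129).

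**Figure D4:**
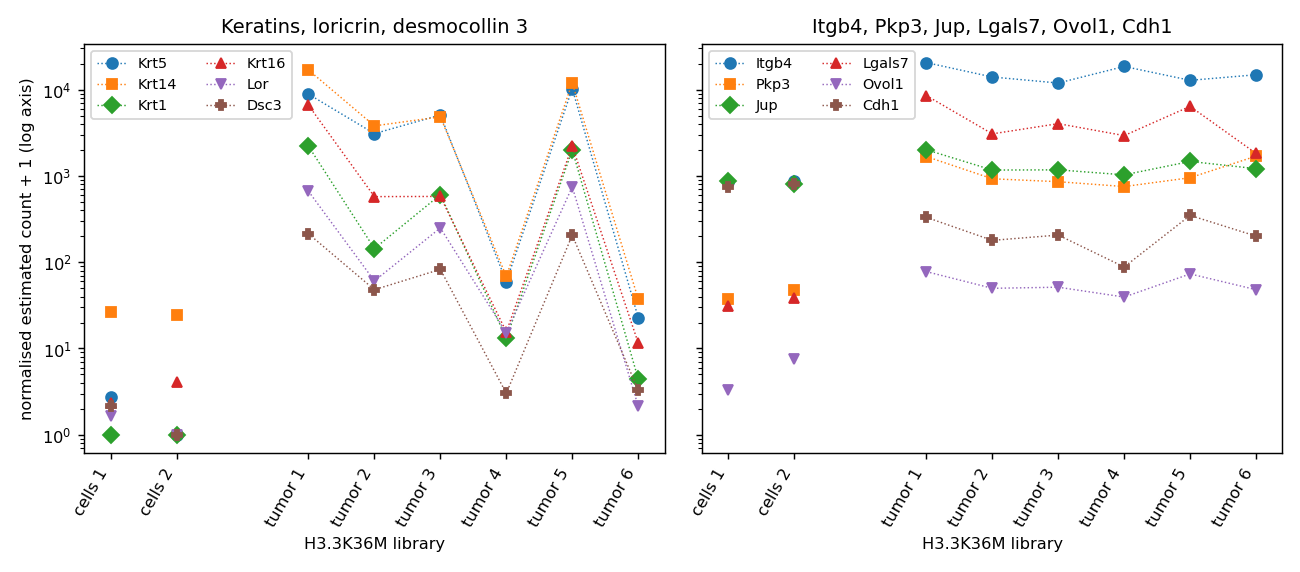
Levels plus 1 (vertical axis, log scale) of 12 genes in the 2 H3.3K36M cell libraries and the 6 tumors grown from these cells (horizontal axis); dotted lines only join the values of a gene. Krt5 spans 21.8 to 10274 between tumors, with tumors 4 and 6 lowest, while Itgb4 spans 11933 to 20589 and Cdh1 lies below the cells in each tumor.

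The 6 tumors thus did not share a single pattern. The highest tumor exceeded the lowest 471-fold for Krt5, 464-fold for Krt14, 671-fold for Krt15 and 763-fold for Krt6a, but 1.73-fold for Itgb4, 1.96-fold for Jup, 2.00-fold for Ovol1, 2.26-fold for Pkp3 and 4.69-fold for Lgals7. Tumors 4 and 6, a pair picked after seeing that Krt5 was lowest there, were the 2 lowest tumors for 29 of the 36 genes (80.6%), Krt5 included, and for 786 of 14425 genes expressed in tumors (5.45%). Since the pair was taken from 1 of the genes counted, this is a description only. The 7 genes with another order were Pkp3, Jup, Itgb4, Cdh1, Epcam, Cldn4 and Grhl3. Tumor 4 was still the lowest for Pkp3, Jup, Cdh1, Epcam and Cldn4, where tumor 6 was not among the 2 lowest. Of the 36 genes, 22 had all 6 tumors above both cell libraries, where 42.2% of all genes tested did, and only Cdh1 had all 6 below, where 35.8% of all genes did. The genes that met the filter through the tumors are counted here too. Krt10, Dsg1a, Cdh3 and Krtdap had 5 tumors above, Krt15, Dsp, Pkp1, Cldn1 and Trp63 had 4, Esrp1 had 3, and Dsg3, Perp and Ivl had 2.

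Ratios between genes within a tumor, which can be compared between tumors because gene length cancels, separated the keratins further. The ratio of Krt14 to Krt5 stayed between 0.949 and 1.90 in all 6 tumors. In tumors 4 and 6 Krt14 was only at 67.4 and 36.4, against 25.3 and 23.5 in the H3.3K36M cells. The part of the grafted cells in the ratios of these tumors was not tested. The ratio of Krt16 to Krt5 was 0.743 in tumor 1, 0.186 in tumor 2, 0.113 in tumor 3, 0.248 in tumor 4, 0.216 in tumor 5 and 0.486 in tumor 6. Tumor 1 thus held the most Krt16 per Krt5 and tumor 3 the least. The ratio of Lgals7 to Krt5 was between 0.623 and 0.994 in tumors 1, 2, 3 and 5, but 49.98 in tumor 4 and 83.6 in tumor 6. That of Itgb4 to Krt5 was between 1.25 and 4.54 in those 4 tumors, and 316 and 683 in tumors 4 and 6. Tumors 4 and 6 had the lowest Lgals7 as well, but by far less than for Krt5.

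Markers of other cells were also compared between tumors and cells. Mammary epithelium, which shares Krt5, Krt14 and Trp63 with skin, was followed through 8 other genes, whose summed level was 304 in tumor 1, 119 in tumor 2, 777 in tumor 3, 99.2 in tumor 4, 14668 in tumor 5 and 3878 in tumor 6, against 33.2 and 37.6 in H3.3K36M cells. All 8 were detected in tumors 4, 5 and 6, but in tumor 4 several were worth only a few reads. There Wap was at 1.01, or 1 read, Elf5 at 2.02, and Csn2 and Csn1s1 at 3.04. Most of the sum of tumor 4 was Krt8, at 73.9, which was at 31.8 and 25.6 in the H3.3K36M cells. The milk protein gene Csn2 alone was at 7.38, 0, 106, 3.04, 4382 and 1669 in tumors 1 to 6. Of 9 hair follicle genes, 2 to 6 were listed at 0 per tumor, and the hair keratins Krt31, Krt33a, Krt35, Krt71, Krt25 and Krt27 did not exceed 2.68 in any. Of the 3 follicle genes tested, Padi3 rose (log2 1.96, limma, adjusted p = 0.0188), from 23.7 and 30.4 in the cells to between 46.2 and 389.9 in tumors, and was highest in tumor 6. Foxn1 fell by 3.22, and Tchh did not pass the test. The sum of the 9 genes ranged from 66.6 to 412 in tumors, against 72.2 and 86.4 in the cells. The 5 skeletal muscle genes summed to 719 to 20312, highest in tumor 6 and next in tumor 5, against 382 to 406 in the cells. The 4 adipocyte genes summed to 626 to 6721, with 1 listed at 0 in at least 1 tumor, against 17.3 to 21.8 in the cells. The 4 sebaceous genes summed to 45.6 to 339, on both sides of the cells at 67.8 to 68.4. Of these 4 genes 0 rose and 1, Mc5r, fell (41.0% and 34.2% of all genes), by log2 3.53 (limma, adjusted p = 0.000675). Elovl3, Scd3 and Awat2 had log2 fold changes of 2.50, 1.38 and 0.51 but did not pass the test (limma, adjusted p = 0.145, 0.0544 and 0.213). Elovl3 was lowest in tumors 4 and 6. The 5 melanocyte genes summed to 427 to 801, against 363 to 368 in the cells, where Tyr alone was at 329 and 339. The 4 macrophage genes summed to 40868 to 49877 in tumors and 93.04 to 99.98 in cells, and the 4 endothelial genes to 7988 to 27803 and 70.3 to 80.3. The part of host skin, mammary or other tissue in the levels of the 36 genes was not tested.

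Snai, Zeb, Twist and Prrx1 factors, the 7 mesenchymal regulators that oppose an epithelial state, moved in both directions. In H3.3K36M cells 3 rose and 3 fell (38.5% and 38.0% of all genes), with log2 fold changes of -1.79 for Snai2, -1.56 for Zeb2, 1.31 for Twist2 and -1.19 for Snai1. In H3.1K36M cells 4 rose and 3 fell (41.3% and 39.4%). Between the mutant lines 3 were higher and 1 lower in H3.1K36M cells (36.1% and 32.9%). After HMT siRNA 3 rose and 3 fell (33.3% and 33.5%). In tumors 2 rose and 3 fell (41.0% and 34.2%): Snai2 changed by -3.33, Prrx1 by -2.31 and Zeb1 by -0.57 while Twist2 changed by 0.74 and Twist1 by 0.53. Snai2 was between 82.0 and 190 in tumors, against 1185 and 1264 in the cells.

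A further 81 epidermal genes, of which 78 were in the tables, were followed in the same fits. In H3.3K36M cells 29 were tested, of which 10 rose and 14 fell (38.5% and 38.0% of all genes). Ehf, an epithelial ETS factor, changed by log2 -7.03, the protease inhibitor Spink5 by -6.76, the cystatin Cst6 by 5.02 and the interleukin 1 receptor antagonist Il1rn by -4.31. Ehf was at 521 and 528 in the wild-type libraries and at 2.39 and 3.80 in the mutant libraries. In H3.1K36M cells 11 of 28 rose and 15 fell (41.3% and 39.4% of all genes), and Ehf, Il1rn and Spink5 changed by -8.66, -8.49 and -7.94 while plakophilin 2 (Pkp2) changed by 7.55. Between the mutant lines, 8 of 23 were higher and 10 lower in H3.1K36M cells (36.1% and 32.9% of all genes), with Il1rn at -4.17, Klk8 at -3.75, Pkp2 at 3.62 and Aqp3 at -3.53.

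After HMT siRNA, 9 of 22 of these epidermal genes rose and 9 fell (33.3% and 33.5% of all genes), and the 4 with the largest changes were Spink5 at log2 -3.50, Ehf at -2.69, the laminin chain Lamb3 at -2.33 and Cst6 at 2.30. The difference of the responses passed the test for 9 of 28 in each direction (27.5% and 27.4% of all genes), and was -4.19 for Ehf, -3.11 for Spink5, 2.73 for Cst6 and 2.58 for Klf5. In tumors 34 of 70 rose and 7 fell (41.0% and 34.2% of all genes), again with genes that met the filter through the tumors. Lypd3 changed by 7.54, the keratin Krt6b by 7.15, the membrane protease St14 by 6.70 and the epidermal protease Asprv1 by 6.18. Krt6b, at 5304, 402, 175, 3.299, 1401 and 2.63 in tumors 1 to 6, had its lowest values in tumors 4 and 6, as did Krt6a. Lypd3, at 626, 123, 109, 33.4, 248 and 557, did not: its level in tumor 6 was exceeded only in tumor 1.

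Some of the 36 genes are neighbours in the RefSeq gene order of GRCm38.p6, so their changes can be set side by side. Sbsn, Dmkn and Krtdap are adjacent on chromosome 7. Sbsn fell in both mutant lines, while Dmkn and Krtdap were too low in cultured cells to be tested. Cdh3 and Cdh1 are adjacent on chromosome 8. Cdh1 rose in H3.3K36M cells, and Cdh3, at 7.77 and 7.59 there and 4.01 and 0 in wild-type cells, was not tested. On chromosome 11 Krt14, Krt16 and Krt17 are adjacent. Krt14 and Krt16 fell in both mutant lines, and Krt17 was listed at 0 in each cultured library. Trp63 and Cldn1 are separated by 1 gene on chromosome 16, and in HMT siRNA cells both rose, whereas in H3.3K36M cells Trp63 fell and Cldn1 did not pass the test.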

How the data were processed

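RNA was extracted with Trizol and made into TruSeq libraries, per the labels' protocols, and reads were aligned with Bowtie 1.0.0 to mm9 before quantification by RSEM 1.2.12 (submitters' processing notes). The deposited tables hold a signal, an estimated count per gene that the authors divided by a median-normalisation factor for each library, per the labels. The tables were scaled separately, so comparisons stay within a table. Only 35.1 to 56.0% of values were whole numbers of estimated reads (tolerance 0.01), so no count test was run. For genes with 1 to 20 estimated reads the share was 75.4 to 78.1% in libraries of both cultured H3.3 lines and 83.5 to 86.0% in all others. This difference lies between the groups where H3.1K36M cells are set against either H3.3 line, and where tumors are set against H3.3K36M cells. Its part in comparisons between these sets was not tested, and the labels give no batch.

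The 36 genes and the other lists were chosen with earlier results of these data known. Two-sided tests on log2(value + 1) used limma 3.58.1 (R 4.3.3), with eBayes trend and robust options and Benjamini-Hochberg adjustment over all genes tested at 0.05. Genes needed a value of at least 10 in at least as many libraries as the smaller group holds. The fits held 6 cultured libraries of the histone lines, 8 libraries of H3.3K36M cells and tumors, and 10 libraries of the siRNA table, and were tested on simulated data. Genes past the threshold are named by role, with each library's value for up to 8 of them and for Trp63, Krt5, Krt14, Cdh1, Epcam and Esrp1. Of each other list up to 4 genes with the largest change are named. Alternatives were a pseudocount of 10, no filter or one of 50, quantile normalisation, only the libraries compared, plain eBayes, the replicate number as a block, and leaving out each replicate. Tables were built with pandas 2.3.3 and numpy 2.4.6, and figures with matplotlib 3.10.9, under Python 3.11.15.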

Additional observations from a re-analysis of the deposited data

Results flagged for a closer look

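For 12 genes the response to H3.3K36M and the response to HMT siRNA differed by a test of the difference itself, the contrast of both responses in 1 limma fit of 10 libraries (adjusted p under 0.05 over all 13186 genes tested, of which 27.5% had a higher and 27.4% a lower response to H3.3K36M). Values are the log2 response to H3.3K36M minus the log2 response to HMT siRNA. The difference was lower for Trp63 (-5.17), Krt16 (-4.05), Krt14 (-3.62), Pkp1 (-3.35), Itgb4 (-0.78) and Perp (-0.59). It was higher for Esrp1 (3.86), Lgals7 (3.07), Dsp (2.56), Col17a1 (2.07), Cdh1 (1.95) and Krt15 (1.07). Trp63 and Pkp1 passed the test in opposite directions in the separate comparisons, whereas Perp, Itgb4 and Krt15 fell in both. Krt14, Krt16, Dsp and Esrp1 were at or near 0 in all 6 siRNA libraries, with highest levels of 4.13, 1.03, 2.24 and 1.25, so their differences rest mainly on the histone lines. Their log2 responses to H3.3K36M alone were -2.83, -3.71, 3.02 and 3.74. The rest of the Krt14 difference comes from the 1 HMT siRNA library at 4.13. Lgals7 was at 3.04, 12.5 and 15.6 in control and 2.21, 1.49 and 5.16 in HMT siRNA libraries, and was not tested between them. Its log2 response to H3.3K36M was 1.67, so the difference of 3.07 rests in part on these low levels. The calls of Krt15 and Dsp were lost under at least 1 alternative setting, with adjusted p up to 0.192 and 0.152.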

How the results depend on the processing

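Over the genes named in each comparison, 1112 of the values recomputed under the alternatives kept their direction and their side of the threshold, 87 lost it, 2 gained it and 7 changed sign. The genes that rose in tumors numbered 23, against 14 with a pseudocount of 10, and 10 to 24 when each library was left out in turn. In H3.3K36M against wild-type cells 7 rose, against 11 with no filter and 3 with a filter of 50 (7 to 9 leaving out libraries, and 8 to 8 fell). In H3.1K36M against wild-type cells 2 rose, against 5 with no filter, 1 with a filter of 50, 4 after quantile normalisation and 2 to 4 leaving out libraries (9 to 11 fell); it was 4 without wild-type replicate 1 or 2 or H3.1K36M replicate 2. Between the mutant lines 1 was higher, against 0 with a filter of 50 and 3 after quantile normalisation, and 12 were lower, against 5 with a filter of 50 and 10 to 13 leaving out libraries. A stricter filter tests fewer of the genes. For HMT siRNA 3 to 4 rose and 4 to 6 fell leaving out libraries. In the difference of responses 6 were higher, against 3 with a filter of 50 (5 to 6 leaving out libraries), and 6 to 7 were lower. The cause of the other changes was not tested.

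The sign changes were in values that had not passed the test. In tumors Trp63 went to -0.50 and Esrp1 to -0.86 after quantile normalisation, which moved the median of all genes from 0.14 to -0.08, and Esrp1 ranged from -0.27 to 1.11 when single libraries were left out (-0.03 without H3.3K36M cell replicate 1, -0.12, -0.09 and -0.27 without tumors 1, 3 and 5). Cdh1 ranged from -0.008 to 0.146 in the HMT siRNA comparison, with the lowest value without HMT siRNA replicate 2. Replicate numbers did not pair the samples: same-numbered libraries had correlated deviations of -0.115 to 0.185. No cell library shares the numbers of tumors 3, 4, 5 and 6, so the replicate block set only tumors 1 and 2 against the cells. With it 24 genes rose, Trp63 among them (log2 1.83, limma, adjusted p = 0.0106), and the other comparisons had the same counts of calls. This value of Trp63 leaves out tumors 4 and 6, where it was at 0 and 4.59, against 12.1 and 17.1 in the cells. Dmkn, Krt1, Krt14, Krt16, Lgals7 and Sbsn lost their calls in tumors under this block (adjusted p = 0.061 to 0.206). Cdh1 in H3.1K36M against wild-type cells became a call after quantile normalisation (0.29). Of the 6 siRNA libraries, 4 correlated best with their own number. Depth limits the precision of levels worth only a few reads.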
